A study of Homo sapiens with 12 samples.

Results

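The genes described here are 54 genes of DNA replication and of the passage from G1 into S phase, out of 19775 gene symbols named on the array. They were chosen by name: for each symbol the probe set with the highest mean over the 12 arrays stood for the gene. All 54 had a named probe set, and all 54 passed the filter on low values, which asked for 3 or more arrays above a log2 value of 4 and kept 10665 genes in all. The cells were HK-2, a human proximal tubule line immortalized with papillomavirus oncogenes, whose products act on the retinoblastoma protein and on p53. All 4 groups therefore carry those oncogenes. The groups were HK-2 cells given a low dose of Kbr for 48 h, vehicle for 48 h, Kbr for 24 h and vehicle for 24 h, with 3 biological replicates each, on 1 Affymetrix array per replicate. The sources used here do not give the concentration behind the low dose, the full name of Kbr or the vehicle. All groups were seeded at 700000 cells per well, treated near confluence and kept in medium with growth factor, insulin, hydrocortisone and transferrin.

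Before S phase the origin recognition complex, CDC6 and CDT1 load the MCM helicase on DNA at origins, and at the start of S phase the CDC7 kinase with DBF4, cyclin E with its kinase, CDC45, GINS and MCM10 switch the helicase on. Polymerase alpha with primase then lays down primers, the RFC complex places the PCNA clamp, polymerases delta and epsilon extend the strands, and FEN1 and LIG1 join the fragments. Many of these genes are transcribed in late G1 by E2F factors that the retinoblastoma protein holds back, and resting tubule cells use few of them.

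The array medians lay between 2.91 and 2.99 on the log2 scale, and arrays of a group correlated at 0.982 to 0.993 over the tested genes. The cells carried all 5 epithelial markers on the list, but only 2 of 10 proximal tubule markers (SLC3A1 and PAX8) passed the filter. LRP2, CUBN, AQP1, ANPEP, GGT1, SLC34A1, SLC5A2 and SLC22A6 stayed below it, so most defining markers of the labelled cell type were not measurable. Markers of distal nephron (0 of 3), endothelium (0 of 4) and leukocytes (0 of 3) stayed below the filter, and of 5 fibroblast markers COL1A1 and LUM passed it. COL1A1 averaged 6.10 in Kbr and 8.16 in vehicle at 48 h, and LUM averaged 8.49 in Kbr and 10.11 in vehicle at 48 h. Both were called lower in Kbr cells at 48 h, against 20.8% of all tested genes. Of the 5 epithelial markers 3 were called lower in Kbr cells at 48 h (60.0%, against 20.8% of all tested genes). At 24 h 2 were called lower (40.0%, against 3.25%). The median log2 change of the 5 was -0.66 at 48 h and -0.53 at 24 h. At each time 0 were called higher (against 22.0% at 48 h and 2.48% at 24 h). With the replicate number as a block 4 were called lower and 1 higher at 48 h, against 28.8% and 28.7% of all tested genes. At 24 h the block gave 3 lower and 0 higher, against 14.0% and 10.4%. Of the epithelial markers, CDH1, the epithelial cadherin, averaged 5.82 in Kbr and 7.32 in vehicle at 48 h. The keratin KRT19 averaged 11.45 in Kbr and 12.41 in vehicle at 48 h. The keratin KRT18 went the other way at 48 h, with 13.02 in Kbr and 12.66 in vehicle. The log2 change was negative for 4 of the 5 at 48 h and for all 5 at 24 h. The tubule transporter gene SLC3A1 averaged 7.51 in Kbr and 9.43 in vehicle at 48 h, a log2 change of -1.91. PAX8, the other tubule marker above the filter, went the other way. It averaged 11.28 in Kbr and 10.88 in vehicle at 48 h, and 11.32 in Kbr and 10.80 in vehicle at 24 h. The part of these markers in the results below was not tested. In bulk RNA, fewer cells in a phase of the cycle and less RNA per cell cannot be told apart.

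All changes below are on the log2 scale unless given as a fold. At 48 h, Kbr cells had more CDC6, MCM10, RFC3, ORC6 and TIPIN mRNA than vehicle cells, by 1.88-fold to 4.94-fold, and less POLA1, GINS2 and RPA3 mRNA, by 1.42-fold to 1.68-fold. Subunits of the same complex could differ in direction. With limma's test and an adjusted p under 0.05, 22 of the 54 genes (40.7%) were called, against 42.8% of all tested genes. Of these, 16 were higher (29.6%, against 22.0% of all tested genes) and 6 lower (11.1%, against 20.8%). The share called was thus close to that of all genes. The median log2 change was 0.07, and -0.00 over all tested genes. All 3 Kbr arrays lay above all 3 vehicle arrays for 16 genes (29.6%, against 26.0% of all tested genes) and below them for 8 (14.8%, against 24.9%).

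At 24 h, 5 of the 54 genes (9.26%) were called, against 5.74% of all tested genes. ORC6, DBF4 and RFC3 were higher in Kbr cells (5.56%, against 2.48%), and POLA1 and PRIM1 were lower (3.7%, against 3.25%). All 5 were also called at 48 h in the same direction. The 2 times shared no arrays in these comparisons, but they are not independent. The variance came from a fit to the arrays of all groups, and the replicate numbers pair the arrays across groups. At 48 h 42.8% of all tested genes were called. The share of all 24 h calls that repeat at 48 h was not computed, so 5 of 5 cannot be set against other genes. The median log2 change at 24 h was -0.12, and -0.02 over all tested genes. With the replicate number as a block 14 genes were called at 24 h, against 24.4% of all tested genes, 5 higher (against 10.4%) and 9 lower (against 14.0%). All 3 Kbr arrays lay above all 3 vehicle arrays for 9 genes (16.7%, against 15.9% of all tested genes) and below them for 16 (29.6%, against 15.9%). A single array mattered: 1 gene was left without Kbr 24 h replicate 2 or 3 or vehicle 24 h replicate 1 or 2, and 2 were left without Kbr 24 h replicate 1, Kbr 48 h replicate 2 or vehicle 48 h replicate 2.

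**Figure D1:**
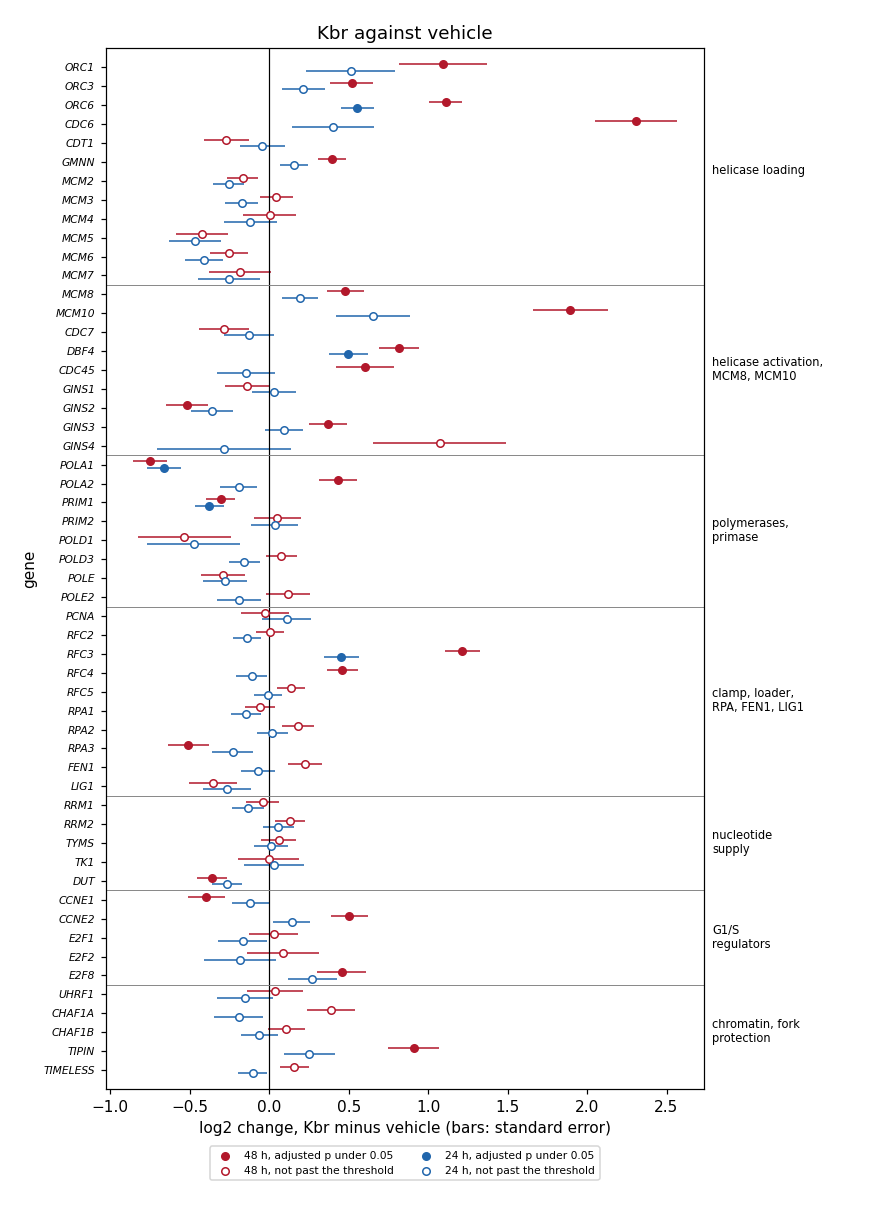
Log2 change, Kbr minus vehicle, with limma's standard error, for the 54 genes by role at 48 h (red) and 24 h (blue); filled points have an adjusted p under 0.05. CDC6 (2.31), MCM10 (1.90) and RFC3 (1.21) lie farthest to the right at 48 h, and POLA1 lies left of 0 at both times (-0.75 at 48 h and -0.66 at 24 h).

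Of the 12 genes that load the helicase, 5 were higher in Kbr cells at 48 h (41.7%, against 22.0% of all tested genes) and 0 were lower (against 20.8%). The 5 were ORC1, ORC3, ORC6, CDC6 and GMNN. The replicate block gave 5 higher and 2 lower, against 28.7% and 28.8% of all tested genes. CDC6, the ATPase that brings MCM to the origin, had log2 values of 11.18, 10.90 and 10.08 in Kbr and 8.07, 8.39 and 8.78 in vehicle at 48 h. At 24 h CDC6 had 9.67, 9.87 and 9.94 in Kbr and 9.29, 9.36 and 9.62 in vehicle. The groups did not overlap at either time, with a small gap at 24 h. The log2 change was 2.31 ± 0.26 (standard error, adjusted p = 0.000129) at 48 h and 0.40 ± 0.26 (adjusted p = 0.375) at 24 h. The other CDC6 probe set gave 2.06 at 48 h.

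ORC6, the smallest subunit of the origin recognition complex, had 10.39, 10.50 and 10.64 in Kbr and 9.26, 9.41 and 9.53 in vehicle at 48 h. At 24 h ORC6 had 10.49, 10.59 and 10.61 in Kbr and 9.91, 10.03 and 10.10 in vehicle. Every Kbr array was above every vehicle array at both times. Its log2 change was 1.11 ± 0.10 (adjusted p = 5.34e-05) at 48 h and 0.55 ± 0.10 (adjusted p = 0.0162) at 24 h; the 24 h call was lost without Kbr 24 h replicate 2 or 3 or vehicle 24 h replicate 1 or 2 (adjusted p up to 0.0751). The subunits ORC1 and ORC3 were higher at 48 h, by 1.09 ± 0.28 (adjusted p = 0.00945) and 0.52 ± 0.14 (adjusted p = 0.0109), though the ORC1 arrays overlapped (8.01 in the lowest Kbr array, 8.13 in the highest vehicle array). GMNN, the geminin that binds and inhibits CDT1, was higher by 0.40 ± 0.09 (adjusted p = 0.00471).

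The helicase subunits themselves did not share this direction. MCM2 had 11.91, 11.95 and 11.98 in Kbr and 12.15, 12.03 and 12.16 in vehicle at 48 h. At 24 h MCM2 had 12.05, 11.88 and 11.87 in Kbr and 12.36, 12.15 and 12.06 in vehicle. All Kbr arrays of MCM2 lay below all vehicle arrays at both times, by small gaps, with log2 changes of -0.17 (adjusted p = 0.189) and -0.26 (adjusted p = 0.141). None of MCM2 to MCM7 was called at either time: at 48 h their log2 changes lay between -0.42 (MCM5) and 0.04 (MCM3), and at 24 h between -0.47 (MCM5) and -0.12 (MCM4). With the replicate block MCM5 (adjusted p = 0.0125) and MCM7 (adjusted p = 0.0483) were lower at 48 h, and MCM2, MCM5, MCM6 and MCM7 at 24 h (adjusted p = 0.0201 to 0.0494). CDT1, the partner of CDC6 in loading, had 9.17, 9.35 and 9.69 in Kbr and 9.74, 9.57 and 9.72 in vehicle at 48 h. At 24 h CDT1 had 9.56, 9.51 and 9.40 in Kbr and 9.75, 9.51 and 9.34 in vehicle. The arrays overlapped at both times, with 95% intervals of -0.58 to 0.04 at 48 h and -0.36 to 0.27 at 24 h.

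Among the 9 genes of helicase activation and the related MCM8 and MCM10, 5 were higher (55.6%, against 22.0% of all tested genes) and 1 was lower (11.1%, against 20.8%) in Kbr cells at 48 h. MCM10, which helps the assembled helicase to start unwinding, had 8.64, 9.05 and 9.14 in Kbr and 6.56, 6.95 and 7.63 in vehicle at 48 h. At 24 h MCM10 had 9.15, 9.11 and 9.12 in Kbr and 8.26, 8.48 and 8.68 in vehicle. The groups were apart at both times, and the vehicle arrays at 48 h were the lowest of all 12. The log2 change was 1.90 ± 0.24 (adjusted p = 0.000207) at 48 h and 0.65 ± 0.24 at 24 h (adjusted p = 0.123, and 0.0236 with the replicate block). The 2 other MCM10 probe sets gave smaller values, 1.20 and 0.97 at 48 h (adjusted p = 0.00138 and 0.000326) and 0.43 and 0.24 at 24 h. DBF4, the regulatory subunit of the CDC7 kinase, had 11.26, 11.34 and 11.42 in Kbr and 10.38, 10.48 and 10.71 in vehicle at 48 h. At 24 h DBF4 had 11.59, 11.26 and 11.39 in Kbr and 10.90, 10.76 and 11.08 in vehicle. It was apart at both times, with log2 changes of 0.82 ± 0.12 (adjusted p = 0.000579) and 0.50 ± 0.12 (adjusted p = 0.0429); the 24 h call held in 5 of the 12 fits that left out an array. CDC7, the kinase itself, had log2 changes of -0.28 at 48 h (adjusted p = 0.17, and 0.0209 with the replicate block) and -0.13 at 24 h (adjusted p = 0.676).

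CDC45 and the GINS complex complete the active helicase, and they did not move as a unit. CDC45 had 8.53, 8.54 and 8.54 in Kbr and 7.72, 7.78 and 8.31 in vehicle at 48 h. At 24 h CDC45 had 8.61, 8.58 and 8.89 in Kbr and 8.73, 8.59 and 9.19 in vehicle. The groups were apart at 48 h, where the log2 change was 0.60 ± 0.18 (adjusted p = 0.0219), and overlapped at 24 h. The 48 h call was lost without Kbr 48 h replicate 1 or 2 or vehicle 48 h replicate 1 or 2 (adjusted p up to 0.0835). GINS2 ran the other way, with 9.67, 9.80 and 10.22 in Kbr and 10.29, 10.43 and 10.52 in vehicle at 48 h. At 24 h GINS2 had 10.49, 10.56 and 10.50 in Kbr and 10.85, 10.96 and 10.82 in vehicle. Every Kbr array was lower at both times, with a change of -0.52 ± 0.13 (adjusted p = 0.00897) at 48 h and -0.36 ± 0.13 at 24 h (adjusted p = 0.124, and 0.0472 with the replicate block).

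GINS1 had 10.72, 11.04 and 11.32 in Kbr and 11.01, 11.22 and 11.27 in vehicle at 48 h. At 24 h GINS1 had 11.65, 11.56 and 11.68 in Kbr and 11.68, 11.61 and 11.50 in vehicle. These arrays overlapped at both times, with log2 changes of -0.14 and 0.03. GINS3 was higher at 48 h by 0.37 ± 0.12 (adjusted p = 0.0308), a call lost without Kbr 48 h replicate 2 or 3 or vehicle 48 h replicate 1 (adjusted p up to 0.104). GINS4 had the widest spread of the 54 genes at 48 h (SD 0.73 in Kbr and 0.88 in vehicle, n = 3 each). Its log2 change of 1.07 had a 95% interval of 0.15 to 2.00 and an adjusted p of 0.0596 (0.0454 with the replicate block). MCM8, which acts with MCM9 in recombination repair rather than in the replicative helicase, was higher at 48 h by 0.48 ± 0.12 (adjusted p = 0.007).

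Polymerase alpha and primase form one complex, and its subunits differed in direction. POLA1, the catalytic subunit of polymerase alpha, had 8.68, 8.89 and 8.80 in Kbr and 9.40, 9.72 and 9.50 in vehicle at 48 h. At 24 h POLA1 had 9.21, 9.21 and 9.40 in Kbr and 9.83, 10.01 and 9.96 in vehicle. Every Kbr array was lower at both times. Its log2 change was -0.75 ± 0.11 (adjusted p = 0.000451) at 48 h and -0.66 ± 0.11 (adjusted p = 0.0103) at 24 h, and both calls held in each of the 12 fits that left out an array. PRIM1, the catalytic primase subunit, had 10.25, 10.16 and 10.02 in Kbr and 10.42, 10.48 and 10.45 in vehicle at 48 h. At 24 h PRIM1 had 9.98, 9.99 and 9.99 in Kbr and 10.34, 10.51 and 10.25 in vehicle. It was apart at both times, with a change of -0.31 ± 0.09 (adjusted p = 0.0221) and -0.38 ± 0.09 (adjusted p = 0.0429). Its 24 h call held in 3 of the 12 fits that left out an array. The 48 h call was lost without replicate 2 or 3 of either 48 h group (adjusted p up to 0.0675).

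POLA2, the accessory subunit of polymerase alpha, had 8.03, 7.94 and 7.88 in Kbr and 7.42, 7.32 and 7.81 in vehicle at 48 h. At 24 h POLA2 had 8.04, 8.09 and 8.08 in Kbr and 8.29, 8.19 and 8.30 in vehicle. Its Kbr arrays were all higher at 48 h and all lower at 24 h. Its log2 change was 0.43 ± 0.12 (adjusted p = 0.0135) at 48 h and -0.19 ± 0.12 (adjusted p = 0.352) at 24 h. The 48 h call was lost without vehicle 48 h replicate 2 (adjusted p = 0.0522), and the other POLA2 probe set gave 0.34 at 48 h (adjusted p = 0.158). PRIM2, POLD1, POLD3, POLE and POLE2 were not called at either time. With the replicate block POLD1, the catalytic subunit of polymerase delta, was lower at both times (adjusted p = 0.000295 at 48 h and 0.00325 at 24 h), and POLE, that of polymerase epsilon, was lower at 48 h (adjusted p = 0.0218).

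PCNA, the clamp, did not pass the test at either time. Of the 4 subunits of its loader measured here, 2 were higher at 48 h, RFC3 and RFC4, against 22.0% of all tested genes. RFC3 had 10.89, 10.92 and 10.95 in Kbr and 9.56, 9.62 and 9.94 in vehicle at 48 h. At 24 h RFC3 had 10.71, 10.65 and 10.69 in Kbr and 10.11, 10.21 and 10.37 in vehicle. The groups were apart at both times. Its log2 change was 1.21 ± 0.11 (adjusted p = 4.99e-05) at 48 h and 0.45 ± 0.11 (adjusted p = 0.0388) at 24 h, where the call held in 5 of the 12 fits that left out an array. RFC4 was higher at 48 h by 0.46 ± 0.10 (adjusted p = 0.00338), and RFC2 and RFC5 had log2 changes of 0.00 and 0.14 with adjusted p of 0.972 and 0.232. PCNA had 13.29, 13.58 and 13.73 in Kbr and 13.35, 13.64 and 13.68 in vehicle at 48 h. At 24 h PCNA had 14.15, 13.94 and 13.65 in Kbr and 13.84, 13.84 and 13.73 in vehicle. The arrays overlapped at both times, with 95% intervals of -0.36 to 0.31 at 48 h and -0.23 to 0.44 at 24 h.

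RPA coats single-stranded DNA as a complex of RPA1, RPA2 and RPA3. RPA3 was lower in Kbr cells at 48 h with a change of -0.51 ± 0.13 (adjusted p = 0.00963), while RPA1 (-0.06) and RPA2 (0.18) were not called. FEN1, the flap endonuclease, had 10.25, 10.51 and 10.37 in Kbr and 9.98, 10.15 and 10.33 in vehicle at 48 h. At 24 h FEN1 had 10.71, 10.77 and 10.73 in Kbr and 10.78, 10.73 and 10.90 in vehicle. LIG1, the ligase that seals the fragments, had 8.16, 7.83 and 8.39 in Kbr and 8.45, 8.30 and 8.70 in vehicle at 48 h. At 24 h LIG1 had 8.73, 8.61 and 8.72 in Kbr and 9.09, 8.80 and 8.97 in vehicle. Neither was called, although every 24 h Kbr array of LIG1 lay below every vehicle array. At 48 h the log2 changes were 0.22 for FEN1 (adjusted p = 0.116) and -0.35 for LIG1 (adjusted p = 0.0811, and 0.0129 with the replicate block).

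Of the 5 enzymes that supply deoxynucleotides, DUT was the only member called at 48 h. This 1 of 5 was lower, against 20.8% of all tested genes, and 0 were higher, against 22.0%. The share lower was thus near that of all genes. DUT, which removes dUTP, was lower in Kbr cells with a change of -0.36 ± 0.09 (adjusted p = 0.0104), with the arrays apart at both times. RRM2, the small subunit of ribonucleotide reductase, had 13.51, 13.70 and 13.74 in Kbr and 13.47, 13.49 and 13.59 in vehicle at 48 h. At 24 h RRM2 had 14.10, 13.92 and 14.00 in Kbr and 13.91, 13.89 and 14.06 in vehicle. The RRM2 arrays overlapped at both times, and the 48 h difference had a 95% interval of -0.08 to 0.34. TYMS, thymidylate synthase, had 13.10, 13.09 and 13.32 in Kbr and 13.17, 12.94 and 13.22 in vehicle at 48 h. At 24 h TYMS had 13.61, 13.42 and 13.48 in Kbr and 13.59, 13.39 and 13.49 in vehicle. TYMS overlapped too, with 95% intervals of -0.18 to 0.30 at 48 h and -0.23 to 0.25 at 24 h.

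The cyclin E genes, whose products partner CDK2 at the entry to S phase, differed in opposite directions at 48 h. CCNE1 had 6.64, 7.02 and 7.09 in Kbr and 7.19, 7.34 and 7.42 in vehicle at 48 h. At 24 h CCNE1 had 7.82, 7.78 and 7.79 in Kbr and 7.95, 7.91 and 7.89 in vehicle. CCNE1 was lower in every Kbr array at both times, with a change of -0.40 ± 0.12 (adjusted p = 0.0186) at 48 h and -0.12 ± 0.12 (adjusted p = 0.576) at 24 h. The 48 h call was lost without Kbr 48 h replicate 1 or vehicle 48 h replicate 2 or 3 (adjusted p up to 0.0619). CCNE2 had 9.72, 9.81 and 9.85 in Kbr and 9.09, 9.42 and 9.37 in vehicle at 48 h. At 24 h CCNE2 had 10.14, 9.82 and 9.81 in Kbr and 9.76, 9.80 and 9.78 in vehicle. CCNE2 was higher in every Kbr array, by 0.50 ± 0.12 (adjusted p = 0.00555) at 48 h and 0.14 ± 0.12 (adjusted p = 0.497) at 24 h.

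E2F1, an activator of S phase genes, had 7.27, 7.00 and 7.05 in Kbr and 7.24, 6.95 and 7.05 in vehicle at 48 h. At 24 h E2F1 had 7.26, 7.21 and 7.00 in Kbr and 7.65, 7.05 and 7.26 in vehicle. E2F1 overlapped at both times, with a 95% interval of -0.31 to 0.36 at 48 h. The other E2F1 probe set gave 0.34 at 48 h (adjusted p = 0.0638) and -0.22 at 24 h (adjusted p = 0.375). E2F8, an atypical E2F that represses such genes, had 8.08, 8.31 and 8.63 in Kbr and 7.63, 7.92 and 8.11 in vehicle at 48 h. At 24 h E2F8 had 9.07, 8.87 and 8.79 in Kbr and 8.62, 8.60 and 8.70 in vehicle. Its 48 h arrays overlapped, and the log2 change of 0.46 ± 0.15 (adjusted p = 0.0341) was not called without Kbr 48 h replicate 2 or 3 or vehicle 48 h replicate 1 or 2 (adjusted p up to 0.129).

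In the last group, TIPIN was the 1 of 5 genes called for Kbr against vehicle at 48 h. This 1 of 5 was higher, against 22.0% of all tested genes, and 0 were lower, against 20.8%. The share higher was thus near that of all genes. TIPIN, which protects stalled forks together with TIMELESS, had 9.21, 9.42 and 9.19 in Kbr and 8.07, 8.47 and 8.55 in vehicle at 48 h. At 24 h TIPIN had 8.92, 9.14 and 9.33 in Kbr and 8.63, 8.96 and 9.05 in vehicle. TIPIN was apart at 48 h, by 0.91 ± 0.16 (adjusted p = 0.00126), and overlapped at 24 h. Its partner TIMELESS had a log2 change of 0.16 at 48 h (adjusted p = 0.186). UHRF1, which brings maintenance methylation to newly copied DNA, had 10.77, 10.80 and 11.28 in Kbr and 10.83, 10.76 and 11.16 in vehicle at 48 h. At 24 h UHRF1 had 11.74, 11.40 and 11.71 in Kbr and 11.87, 11.50 and 11.94 in vehicle. UHRF1 overlapped at both times, with a 95% interval of -0.35 to 0.43 at 48 h. The chromatin assembly subunit CHAF1A was higher at 48 h with the replicate block only (0.39, adjusted p = 0.0608 without it and 0.0123 with it).

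**Figure D2:**
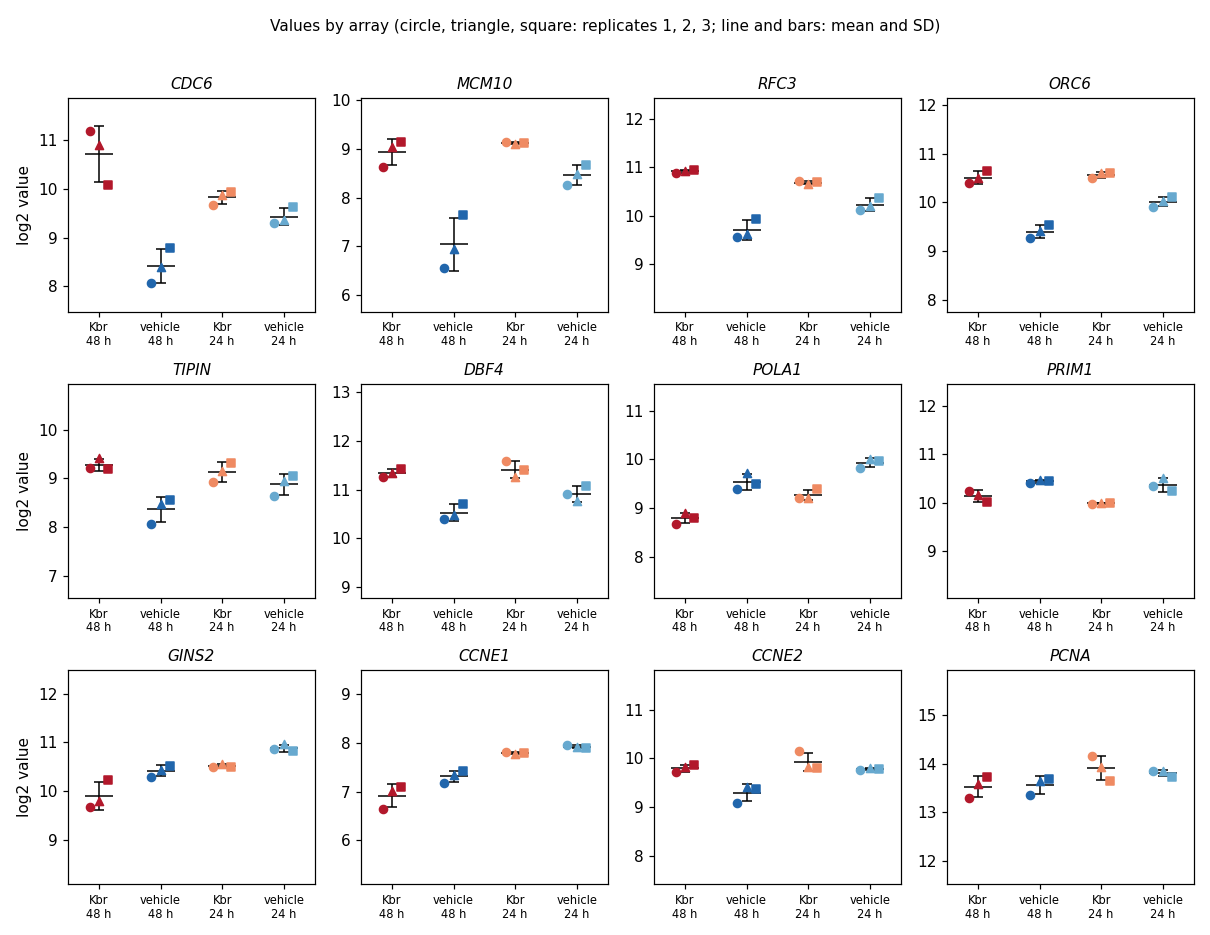
Log2 values of 12 genes on each array, in panels that each span the same range of log2 units; colours give the groups, symbols the replicate number, and the black line and bars the mean and SD of 3 arrays. The 48 h vehicle arrays are the lowest group for CDC6, MCM10, RFC3, ORC6 and TIPIN, POLA1 is lower in Kbr at both times, and the PCNA arrays overlap between Kbr and vehicle.

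Leaving out each array in turn gave between 18 and 23 genes called at 48 h, and 16 of the 22 were called in all 12 of those fits. With the replicate number as a block 30 genes were called at 48 h, against 57.5% of all tested genes, 18 higher (against 28.7%) and 12 lower (against 28.8%), including all 22. The probe sets of ORC6, CDT1, DUT and CHAF1A end in _x_at, the Affymetrix suffix for sets with some probes that match other sequences. Many others end in _s_at, for probes shared by several transcripts, among them those of MCM10, DBF4, CDC45, GINS2 and POLA2. Signal from another matching transcript cannot be told apart in any of these sets.

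Promoters are shown for genes that differed in opposite directions at 48 h while holding the same letters, those of the E2F site. RefSeq promoter windows (build GRCh38.p14, 250 bases before to 50 after the start site) matched 46 of the 54 genes. The letters searched were TTTCCCGC, TTTGGCGC, TTTCGCGC and TTTGCCGC on both strands, with overlapping matches allowed. At least 1 match lay in a window of 26 of the 46 genes (56.5%), against 3.99% of all 27305 genes in the table. By window, 27 of 63 (42.9%) held a match, against 3.31% of all 35116 windows. Among genes higher in Kbr cells at 48 h 8 of 14 had a match, among genes lower 3 of 5, and among genes not called 15 of 27. The sequences below run from 160 bases before to 20 after the start site of the 3 higher and the 3 lower genes with the largest changes among those with a match, and the capitals mark the matches, in either orientation.
CDC6 (higher, chr17:40287719-40287898, plus strand): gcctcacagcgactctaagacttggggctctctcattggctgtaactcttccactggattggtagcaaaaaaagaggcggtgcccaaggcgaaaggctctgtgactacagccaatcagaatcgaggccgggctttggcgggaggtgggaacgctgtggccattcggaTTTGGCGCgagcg
RFC3 (higher, chr13:33817989-33818168, plus strand): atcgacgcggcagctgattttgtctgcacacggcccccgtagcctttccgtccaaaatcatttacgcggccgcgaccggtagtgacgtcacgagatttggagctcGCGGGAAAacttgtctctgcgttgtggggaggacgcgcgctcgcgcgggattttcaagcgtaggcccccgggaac
TIPIN (higher, chr15:66356666-66356845, minus strand): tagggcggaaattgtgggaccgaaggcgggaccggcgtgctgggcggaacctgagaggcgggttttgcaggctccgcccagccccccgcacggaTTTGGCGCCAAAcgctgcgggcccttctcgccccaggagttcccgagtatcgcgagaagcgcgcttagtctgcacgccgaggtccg
POLA1 (lower, chrX:24693758-24693937, plus strand): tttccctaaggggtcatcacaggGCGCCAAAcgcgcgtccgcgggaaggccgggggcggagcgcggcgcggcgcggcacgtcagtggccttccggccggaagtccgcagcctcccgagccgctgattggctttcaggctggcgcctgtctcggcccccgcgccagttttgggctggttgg
GINS2 (lower, chr16:85688935-85689114, minus strand): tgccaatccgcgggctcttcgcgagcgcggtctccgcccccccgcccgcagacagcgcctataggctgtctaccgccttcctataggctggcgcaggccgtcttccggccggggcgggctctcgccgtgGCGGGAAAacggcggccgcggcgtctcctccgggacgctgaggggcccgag
DUT (lower, chr15:48332037-48332216, plus strand): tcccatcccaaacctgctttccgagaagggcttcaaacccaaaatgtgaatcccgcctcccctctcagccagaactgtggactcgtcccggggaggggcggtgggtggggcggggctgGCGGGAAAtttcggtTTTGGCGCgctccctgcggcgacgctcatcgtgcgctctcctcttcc
In TIPIN 2 matches on opposite strands share bases, and DUT holds 2 separate matches. A match describes the letters of the window and nothing about binding.

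MCM10, CDC45, UHRF1, E2F8 and POLA2 fell between 24 h and 48 h in vehicle cells, by 1.68-fold to 2.69-fold with the probe sets used, and most of the other genes had lower means at 48 h. In vehicle 15 of the 54 genes (27.8%) were lower at 48 h than at 24 h, against 1.88% of all tested genes, and 0 were higher, against 1.42%; 3.29% of all tested genes were called in either direction. The log2 change was negative for 51 of 54, the median was -0.39 and that of all tested genes was -0.02. All 3 arrays at 48 h lay below all 3 at 24 h for 41 of 54 genes (75.9%), against 14.5% of all tested genes, and above them for 0, against 11.9%. With the replicate block 33 were lower and 0 higher, against 13.3% and 9.23% of all tested genes, of which 22.5% were called in either direction. The calls depended on single arrays: 0 of 15 remained without vehicle 24 h replicate 3 or vehicle 48 h replicate 1 or 2, and between 4 and 8 were called without vehicle 24 h replicate 1 or 2, Kbr 48 h replicate 2 or any 1 Kbr 24 h array.

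CCNE1, UHRF1, GINS2 and GINS1 fell in Kbr cells over the same time, by 1.52-fold to 1.84-fold. In Kbr 8 of 54 genes (14.8%) were lower at 48 h than at 24 h, against 5.04% of all tested genes, and 0 were higher, against 5.6%; 10.6% of all tested genes were called in either direction. The log2 change was negative for 43 of 54, with a median of -0.14, and -0.01 over all tested genes. The arrays were apart with 48 h lower for 18 genes (33.3%, against 15.5% of all tested genes) and with 48 h higher for 5 (9.26%, against 15.3%). With the replicate block 17 were lower and 3 higher, against 16.4% and 14.2% of all tested genes, of which 30.7% were called in either direction. Of the 8 genes, 1 was called without Kbr 24 h replicate 1 or 3 or Kbr 48 h replicate 1 or 2, 2 without Kbr 24 h replicate 2 and 4 without vehicle 24 h replicate 1. Without Kbr 48 h replicate 3 the count was 14.

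**Figure D3:**
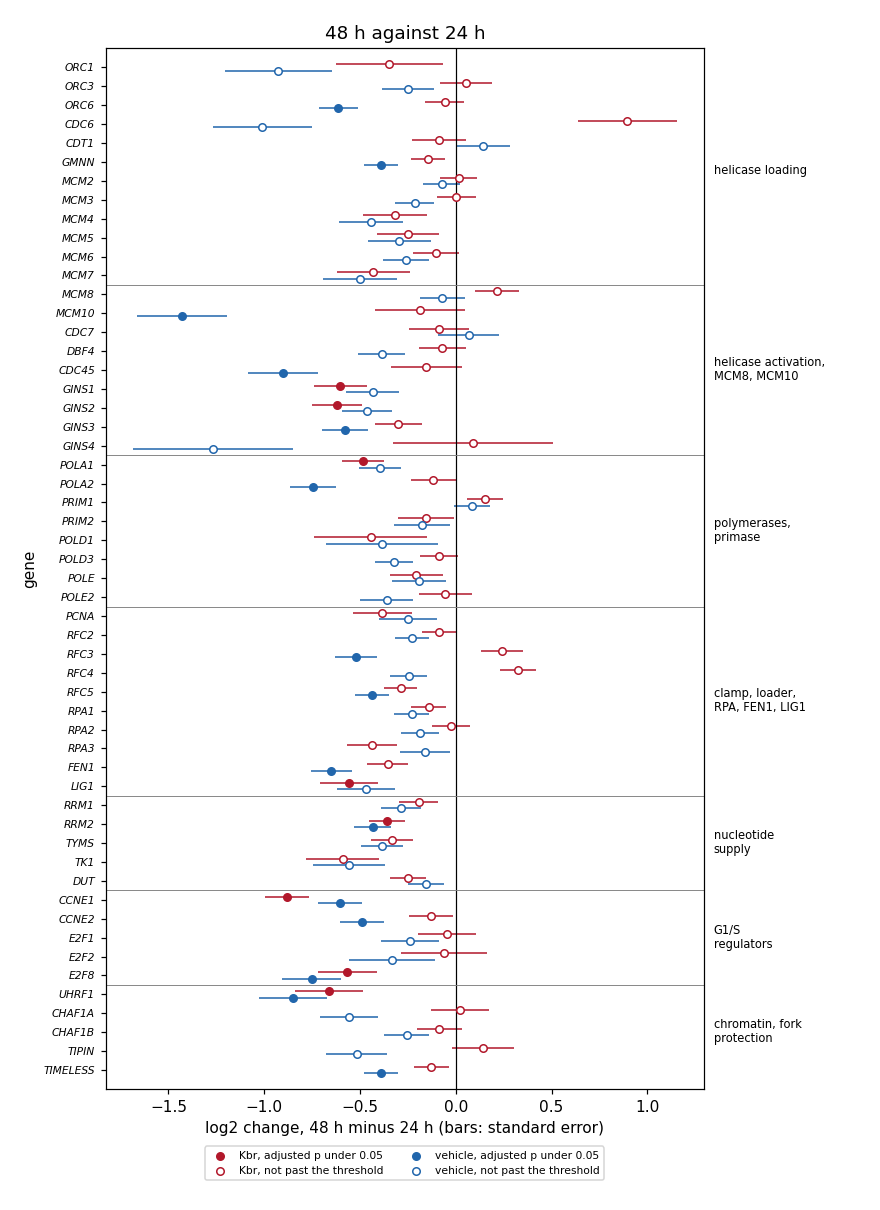
Log2 change, 48 h minus 24 h, with limma's standard error, in Kbr cells (red) and vehicle cells (blue) for the 54 genes by role; filled points have an adjusted p under 0.05. In vehicle 51 points lie left of 0 and in Kbr 43, and CDC6, RFC3 and RFC4, among others, lie on opposite sides of 0 in the 2 treatments.

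CCNE1, E2F8, RRM2 and UHRF1 were lower at 48 h in both treatments, which is 50.0% of the genes called in Kbr and 26.7% of those called in vehicle. The same shares over all tested genes were not computed, so this overlap cannot be set against that of other genes. CCNE1 fell by 0.88 ± 0.12 in Kbr (adjusted p = 0.00308) and by 0.61 ± 0.12 in vehicle (adjusted p = 0.0281), on the log2 scale. The Kbr call for CCNE1 held in all 12 fits that left out an array. UHRF1 fell by 0.66 ± 0.18 in Kbr (adjusted p = 0.0397) and by 0.85 ± 0.18 in vehicle (adjusted p = 0.0357). E2F8 fell by 0.57 ± 0.15 in Kbr (adjusted p = 0.0419) and by 0.75 ± 0.15 in vehicle (adjusted p = 0.0341). RRM2 fell by 0.36 ± 0.10 in Kbr (adjusted p = 0.0387) and by 0.43 ± 0.10 in vehicle (adjusted p = 0.0401). For each of these genes the 48 h arrays lay below the 24 h arrays in both treatments.

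The genes called with time in vehicle but not in Kbr included the helicase factors MCM10 and CDC45. MCM10 had -0.18 in Kbr and fell by 1.43 ± 0.24 in vehicle (adjusted p = 0.0172); its arrays overlapped in Kbr and were apart in vehicle. Its 2 other probe sets fell by 1.12 and 0.84 in vehicle (adjusted p = 0.0331 and 0.018). CDC45 had a change of -0.15 in Kbr and fell by 0.90 ± 0.18 in vehicle (adjusted p = 0.0341). POLA2 had -0.12 in Kbr and fell by 0.74 ± 0.12 in vehicle (adjusted p = 0.0167), but its other probe set had -0.08 in vehicle. FEN1 had -0.36 in Kbr (adjusted p = 0.0566) and fell by 0.65 ± 0.11 in vehicle (adjusted p = 0.0173). ORC6 had -0.06 in Kbr and fell by 0.61 ± 0.10 in vehicle (adjusted p = 0.0177). GINS3, RFC3, CCNE2, RFC5, TIMELESS and GMNN made up the rest, with falls of 0.39 to 0.58 in vehicle. CDC6 had 0.89 ± 0.26 in Kbr (adjusted p = 0.0505, and 0.0394 with the replicate block) and -1.01 ± 0.26 in vehicle (adjusted p = 0.06, and 0.0315 with the replicate block).

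The genes called with time in Kbr but not in vehicle were GINS1, GINS2, LIG1 and POLA1. GINS2 fell by 0.62 ± 0.13 in Kbr (adjusted p = 0.0164) and had -0.46 in vehicle (adjusted p = 0.0775, and 0.02 with the replicate block). GINS1 fell by 0.60 ± 0.14 in Kbr (adjusted p = 0.0233) and had -0.43 in vehicle (adjusted p = 0.111). LIG1 fell by 0.56 ± 0.15 in Kbr (adjusted p = 0.0416) and had -0.47 in vehicle (adjusted p = 0.111). POLA1 fell by 0.48 ± 0.11 in Kbr (adjusted p = 0.0209) and had -0.39 in vehicle (adjusted p = 0.0735). All 4 had their 48 h arrays below their 24 h arrays in both treatments. Being called in 1 treatment and not in the other is no test of the difference, which follows.

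The difference between the changes with time in Kbr and in vehicle is the same quantity as the difference between the Kbr effects at 48 h and at 24 h. It was positive for 41 of 54 genes (75.9%), against 51.9% of all tested genes, with a median of 0.17, and 0.01 over all tested genes. With limma's test 0 of 54 passed an adjusted p under 0.05, against 0.141% of all tested genes. At an unadjusted p under 0.05 there were 10 of 54 genes (18.5%), against 16.1% of all tested genes. With the replicate block 8 were called, all positive, against 7.36% of all tested genes in either direction, 3.41% positive and 3.95% negative. They were CDC6 (1.90), MCM10 (1.24), RFC3 (0.76), CDC45 (0.75), TIPIN (0.66), POLA2 (0.63), RFC4 (0.57) and ORC6 (0.56), with adjusted p between 0.0144 and 0.0451 in that fit and between 0.0753 and 0.207 without the block. Without the block, CDC6, RFC3 and RFC4 were called when Kbr 48 h replicate 3 was left out, and RFC3 when vehicle 48 h replicate 3 was left out.

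**Figure D4:**
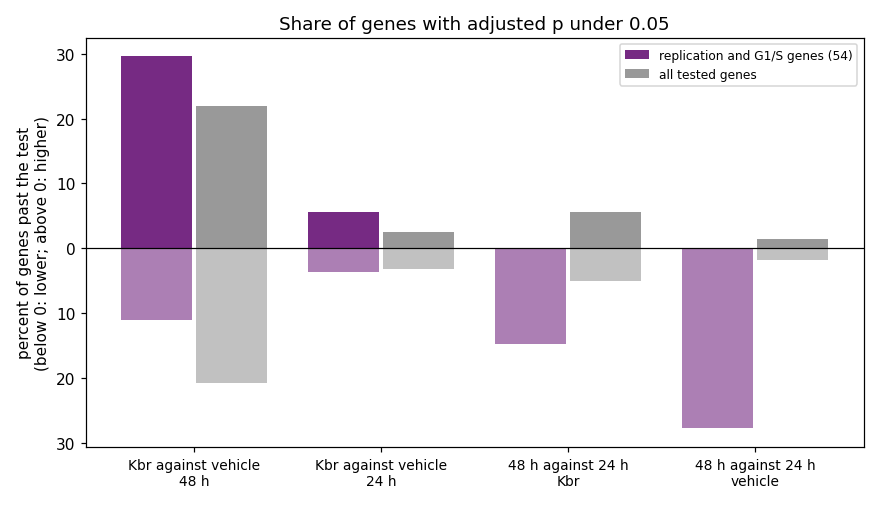
Percent of the 54 genes (purple) and of all tested genes (grey) with an adjusted p under 0.05 in limma's test in each comparison, higher above 0 and lower (paler) below 0. In vehicle 27.8% of the 54 genes were lower at 48 h than at 24 h, against 1.88% of all tested genes, while at 48 h Kbr against vehicle gave 40.7% called against 42.8%.

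Within the 48 h groups 1 array tended to be high or low for many of these genes at once. Kbr 48 h replicate 3 was the highest of its group for 33 of 54 genes (61.1%, against 34.8% of all tested genes), and replicate 1 was the lowest for 33. Vehicle 48 h replicate 3 was the highest of its group for 42 of 54 genes (77.8%, against 36.4% of all tested genes), and replicate 1 was the lowest for 34. CDC6 in Kbr at 48 h went against this order, with replicate 3 the lowest. Without vehicle 48 h replicate 3 the median Kbr effect of the 54 genes at 48 h was 0.17, and without Kbr 48 h replicate 1 it was 0.13. The median SD within a group was 0.14 in Kbr and 0.16 in vehicle at 48 h, and 0.10 in each group at 24 h.

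**Figure D5:**
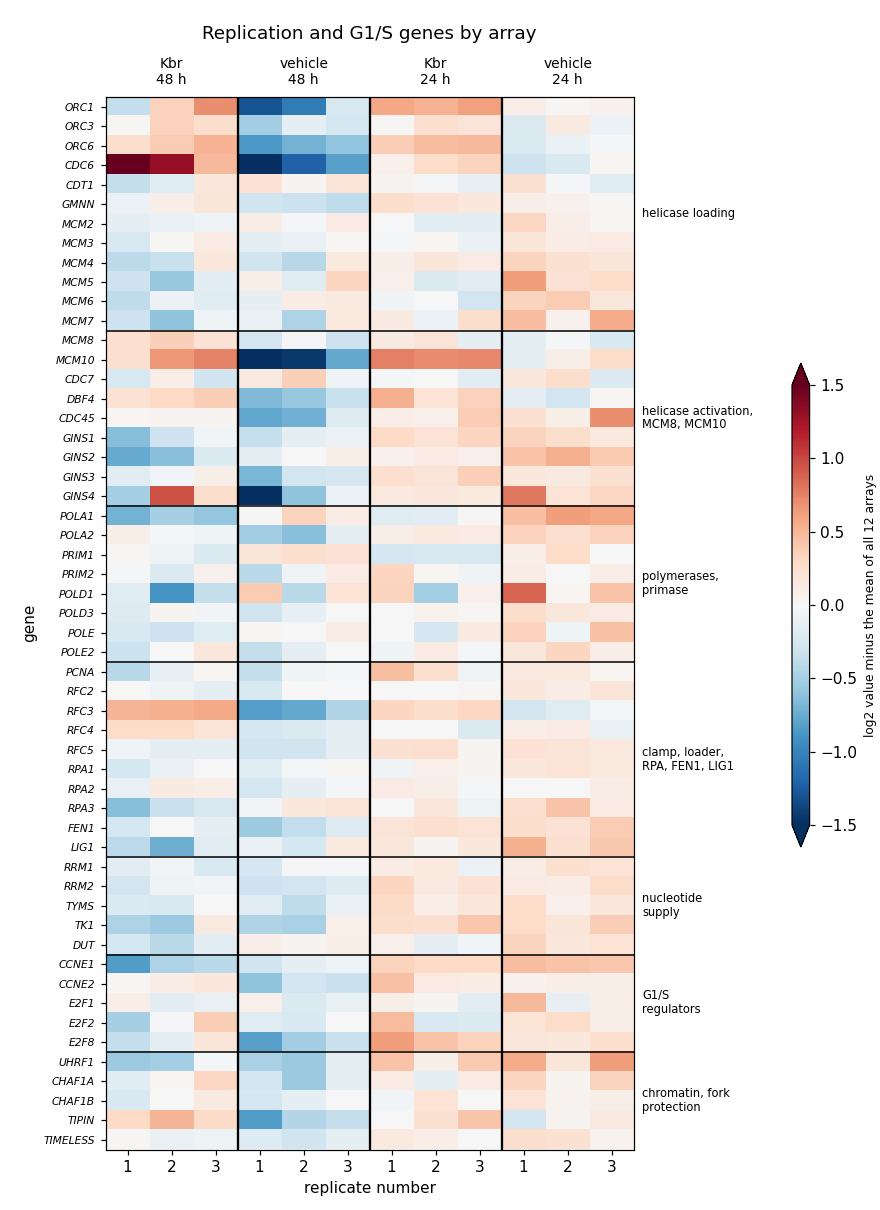
Log2 value on each array minus the mean of that gene over the 12 arrays, for the 54 genes by role (rows) and the 12 arrays by group and replicate (columns); red is above the mean, blue below, and colours saturate at 1.5. The vehicle 48 h columns are blue for CDC6, MCM10, RFC3, ORC6 and ORC1, and within the 48 h groups replicate 1 is bluer than replicate 3 for most genes.

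Other genes of replication that are not among the 54 also differed in both directions. Of 34 listed, 33 were tested, and at 48 h 12 were higher (36.4%, against 22.0% of all tested genes) and 4 lower (12.1%, against 20.8%) in Kbr cells, with a median of 0.13. TOP1, topoisomerase I, was higher by 0.85 ± 0.11 (adjusted p = 0.000309), and the origin subunits ORC5 and ORC2 by 0.73 ± 0.12 and 0.70 ± 0.10 (adjusted p = 0.000746 and 0.000539). The MCM binding protein MCMBP was higher by 0.62 ± 0.08 (adjusted p = 0.000265). POLD4, a small subunit of polymerase delta, was lower with a change of -1.11 ± 0.16 (adjusted p = 0.000407). RNASEH2C, HELLS and ASF1B were lower by 0.32 to 0.44. At 24 h 2 of these genes were higher, ASF1A and POLE3 (6.06%, against 2.48% of all tested genes), and 0 lower (against 3.25%). With time 4 were lower in Kbr (12.1%, against 5.04%) and 4 in vehicle (12.1%, against 1.88%), and 0 were higher in either (against 5.6% in Kbr and 1.42% in vehicle).

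Among 28 tested genes that control the passage into S phase (of 30 listed), 7 were higher (25.0%, against 22.0% of all tested genes) and 4 lower (14.3%, against 20.8%) in Kbr cells at 48 h, with a median of -0.03. These shares are near those of all genes. CDKN1A, the inhibitor p21 of cyclin-dependent kinases that also binds PCNA, had 10.83, 10.65 and 10.64 in Kbr and 9.66, 8.95 and 9.62 in vehicle at 48 h. At 24 h CDKN1A had 10.36, 10.29 and 10.16 in Kbr and 9.64, 9.49 and 9.75 in vehicle. CDKN1A was apart at both times, with a log2 change of 1.30 ± 0.17 (adjusted p = 0.000258) at 48 h and 0.64 ± 0.17 at 24 h (adjusted p = 0.0509, and 0.0134 with the replicate block). CDC25A, a phosphatase that activates CDK2, was higher at 48 h by 1.01 ± 0.18 (adjusted p = 0.00143), and E2F3 and FBXO5 by 0.68 ± 0.12 and 0.69 ± 0.10 (adjusted p = 0.00112 and 0.000412). Cyclin D2 (CCND2) was lower with a change of -1.47 ± 0.31 (adjusted p = 0.00321), SKP2, which targets the inhibitor p27 for destruction, with a change of -1.03 ± 0.25 (adjusted p = 0.00748), RBL2 with a change of -0.74 ± 0.12 (adjusted p = 0.000856) and CDK6 with a change of -0.59 ± 0.14 (adjusted p = 0.00763). CCND1, cyclin D1, was not called in any comparison (0.17 ± 0.49 at 48 h), but with the replicate block it was lower at 48 h than at 24 h in Kbr (-1.12, adjusted p = 0.0137). At 24 h E2F6 was the only gene of this list called (0.59, adjusted p = 0.042), which is 3.57% higher, against 2.48%.

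Genes of G2 and mitosis were mostly higher in Kbr cells at 48 h, 26 of 34 (76.5%, against 22.0% of all tested genes), with 1 lower (2.94%, against 20.8%) and a median of 0.57. The kinase NEK2 was higher by 0.77 ± 0.09 (adjusted p = 0.000166), cyclin B1 (CCNB1) by 1.06 ± 0.13 (adjusted p = 0.0002), and the kinetochore proteins NDC80 and NUF2 by 0.63 ± 0.10 and 0.64 ± 0.10 (adjusted p = 0.00071 and 0.000763). KIF20A was the gene that was lower (-0.41 ± 0.12, adjusted p = 0.0161). At 24 h 4 of 34 were higher (11.8%, against 2.48% of all tested genes) and 0 lower (against 3.25%), and with the replicate block 19 were higher (against 10.4%). With time 7 were lower in Kbr (20.6%, against 5.04%), and 23 with the replicate block (against 16.4%). In vehicle 18 were lower with time (52.9%, against 1.88%), and 32 with the replicate block (against 13.3%). With time 0 were higher in Kbr (against 5.6%) and 0 in vehicle (against 1.42%).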

How the data were processed

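The deposited log2 values of 12 arrays (54675 probe sets) were used; per the submitters' processing notes they were made by the authors with GCRMA, whose version is not given in the sources used here. GCRMA models background from probe sequence, normalizes by quantiles and summarizes on a log2 scale; weak signals are pulled to a floor, and quantile scaling hides a shift common to all genes. In the platform annotation 41091 probe sets had 1 symbol, 1801 had more and 11721 lacked one; a further 62 were array controls. Arrays carry no read depth, and their number limits the precision.

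Of 19775 symbols, 10665 passed the filter (above 4 in at least 3 arrays) and 9110 did not. All 12 arrays entered 1 fit of a mean per group in limma 3.58.1 (lmFit, eBayes; R 4.3.3), with two-sided p-values adjusted by Benjamini-Hochberg over all tested genes and a threshold of 0.05. The fit was tested on simulated data with known changes in the comparison of Kbr and vehicle at 48 h only. Those data had independent noise on each array, so the test does not cover the pairing of replicate numbers described below. An exact test of 3 against 3 arrays cannot go below 0.1. Each comparison shares arrays with others. Members and lists were chosen with earlier results of these data known.

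Replicate numbers come from the labels. Deviations from the group means correlated at 0.28 to 0.70 in the 18 pairs of arrays with the same number, so the numbers pair the arrays. The 36 other pairs correlated at -0.45 to -0.06, and each of the 12 arrays correlated best with its own number. Deviations cancel out within a group, so negative values in the other pairs follow from the positive ones and are no separate evidence. The labels do not say what a number stands for.

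Any of the 54 genes could be named. All array values are printed for up to 8 called genes per comparison with the largest change and arrays apart, and for MCM2, CDC6, CDT1, PCNA, RRM2, TYMS, CCNE1, CCNE2, E2F1 and UHRF1; from the other lists up to 4 called genes with the smallest p per direction and comparison could be named, with CDKN1A and CCND1. Alternatives were the replicate block, leaving out each array, no filter, a floor of 6, averaged probe sets, arrays centred on their median or quantile-normalized again, a robust variance with an intensity trend, and a fit to only the groups compared. Scripts ran in Python 3.11.15.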

Additional observations from a re-analysis of the deposited data

Results flagged for a closer look

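For 3 genes the change from 24 h to 48 h separated all arrays in opposite directions in Kbr and in vehicle cells. CDC6 was higher at 48 h in Kbr and lower in vehicle, and the 2 changes differed by 1.90 on the log2 scale (limma's adjusted p = 0.0753, and 0.0298 with the replicate block). RFC3 did the same, with a difference of 0.76 (adjusted p = 0.0891, and 0.0144 with the replicate block). RFC4 did so too, with 0.57 (adjusted p = 0.115, and 0.0257 with the replicate block). For POLA2 the Kbr arrays were all above the vehicle arrays at 48 h and all below them at 24 h, and the Kbr effects differed by 0.63 (adjusted p = 0.14, and 0.0451 with the replicate block). None of the 4 differences passed the test without the block. The share of all tested genes whose arrays separate in opposite directions in this way was not computed. These genes therefore cannot be set against other genes.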

How the results depend on the processing

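No call among the 54 genes turned its direction under any alternative. With the replicate block the genes called among the 54 numbered 14 for Kbr against vehicle at 24 h, 20 for time in Kbr, 33 for time in vehicle and 8 for the difference; over all tested genes the counts were 2602, 3273, 2404 and 785. It removed no call among the 54 genes. With only the groups compared, 1 gene was called for time in Kbr and 0 in vehicle (224 and 9 of all genes); this has no version for the difference. An intensity trend with robust variance gave 14 for time in Kbr, and the mean of probe sets 9 for time in vehicle, with GINS4 below the filter and a median of -0.29. Without the filter 726 of all genes were called for time in Kbr, 185 for time in vehicle and 32 for the difference. For the difference a floor of 6 gave 9, subtraction of the array median 8 and the mean of probe sets 3 of all genes. Leaving out 1 array gave 18 to 23 of the 54 genes for Kbr against vehicle at 48 h, 1 to 6 at 24 h, 1 to 14 for time in Kbr, 0 to 16 for time in vehicle and 0 to 3 for the difference. Over all genes these ranges were 3641 to 4491, 81 to 767, 288 to 2206, 21 to 558 and 0 to 479. With 3 arrays a group and probe sets that can share transcripts, small changes are not settled, and the dose cannot be set against other doses here.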

Other observations

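Other probe sets of the same genes were compared with those used. Of the called genes at 48 h, 10 other probe sets were tested for Kbr against vehicle: 0 had the opposite sign and 7 were called too. For time in vehicle 10 were tested, 4 were called and 1 had the opposite sign, a probe set of RFC5 with a log2 change of 0.18 (adjusted p = 0.516) against -0.44 for the one used.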
